A study of Bos indicus x Bos taurus with 11 samples.

Results

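The genes described here are 9 classic interferon-induced genes of cattle: the transcription factor gene IRF7, the ubiquitin-like modifier gene ISG15, and the antiviral effector genes MX1, MX2, IFIT2, IFIT3, RSAD2, IFI6 and IFI44. They were chosen by gene name. Of the 27398 rows of the read count table, 8 carry these names. MX2 was not analysed here. Of the 8 genes, 6 passed the filter on low counts, among 16946 genes that did, while RSAD2 and IFI44 did not. In the table of reads assigned to a parental allele, 5 of the genes are listed among 9716 (IRF7, MX1, IFIT2, IFIT3 and IFI6). IFIT3 alone is also among the 4347 genes for which the authors split the total count between the alleles.

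The libraries come from primary skin fibroblasts, 1 culture and 1 library per fetus, of F1 crosses between Brahman and Angus cattle collected at day 105 of gestation. Large offspring syndrome (LOS) is an overgrowth condition of the fetus, and the LOS group held 6 fetuses from assisted reproduction that weighed more than the 97th centile of controls (LOS 1 to 3 female, LOS 4 to 6 male). The control group held 5 fetuses conceived by artificial insemination (control 1 and 2 female, control 3 to 5 male). All cells grew in serum-containing medium, and the labels name no interferon or virus given to any culture. RNA was depleted of ribosomal RNA before sequencing, and total counts per library ran from 12084822 to 19297167 in LOS and from 14147031 to 19272354 in controls. All 9 fibroblast markers were measured, with a summed level of 51930 to 66710 CPM (counts scaled to the library size) in LOS and 55220 to 64380 CPM in controls. Of 14 leukocyte markers, 11 had a row, and their sum stayed between 1.29 and 1.90 CPM in LOS and between 1.56 and 2.32 CPM in controls. In these cultured cells, fewer cells of a type and less RNA per cell cannot be told apart.

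Interferons are secreted proteins that cells release on sensing foreign nucleic acid. The type I receptor (IFNAR1 and IFNAR2) signals through the kinases JAK1 and TYK2 to a transcription factor complex that includes STAT2 and IRF9 and switches on a shared programme of antiviral genes. Fibroblasts carry this receptor and are a standard cell type for studying that response, and cultures without a stimulus usually express many of the induced genes at low levels. In cattle the same genes are also known as responders to interferon tau, the signal of the early conceptus to the uterus.

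None of the 6 genes that passed the filter separated LOS from control. IRF7, which drives transcription of type I interferon genes and is itself interferon-induced, lies on chromosome 29 at 50695310 to 50698462 on the plus strand (build ARS-UCD1.2, as for all positions here). Its level was 2.54, 4.79, 2.94, 6.97, 6.27 and 6.71 CPM in LOS 1 to 6, against 2.50, 3.90, 4.76, 4.77 and 4.31 CPM in control 1 to 5. The 3 LOS males were the highest libraries, while LOS 1, LOS 3 and control 1, all female, were the lowest, and the groups overlapped. IRF7 averaged 5.04 ± 1.94 CPM in LOS (SD, n = 6) and 4.05 ± 0.937 CPM in controls (SD, n = 5).

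ISG15 encodes a ubiquitin-like protein that is attached to other proteins during the interferon response, and lies on chromosome 16 at 51464069 to 51465096 on the minus strand. Its level was 2.05, 3.27, 1.51, 1.10, 0.0756 and 0.159 CPM in LOS 1 to 6, against 2.36, 1.68, 0.136, 0.148 and 0.565 CPM in control 1 to 5. These values rest on few reads, between 1 and 15 counts in a male library and between 20 and 45 in a female library. ISG15 was high in the 5 female libraries and low in the 6 male libraries of both groups, and LOS and controls overlapped. The mean was 1.36 ± 1.21 CPM in LOS (SD, n = 6) and 0.978 ± 0.998 CPM in controls (SD, n = 5).

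MX1 encodes a dynamin-like GTPase that blocks the replication of RNA viruses, and lies on chromosome 1 at 141668304 to 141706501 on the plus strand. Its level was 1.23, 0.653, 0.528, 0.440, 0.227 and 1.64 CPM in LOS 1 to 6, against 1.69, 1.88, 0.815, 10.97 and 0.0706 CPM in control 1 to 5. Control 4, a male, stood far above every other library with 223 counts, and control 5, also a male, had a single count. The mean was 0.786 ± 0.537 CPM in LOS (SD, n = 6) and 3.08 ± 4.47 CPM in controls (SD, n = 5), and the control mean rests on that library. No other gene of the set was raised to a like extent in control 4: IFI6 had its highest value there (6.64 CPM), but ISG15 and IFIT2 were at 0.148 and 0.295 CPM, below their medians over the 11 libraries of 1.10 and 0.378 CPM.

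IFIT2 and IFIT3 encode tetratricopeptide-repeat proteins that act together in complexes against viral RNA. Both lie on the plus strand of chromosome 26, IFIT2 at 11028739 to 11036929 and IFIT3 at 11043982 to 11054721, with 7052 bases between them. IFIT2 was at 0.164, 0.798, 0.678, 0.440, 0.378 and 0.370 CPM in LOS 1 to 6, against 0.135, 0.938, 0.204, 0.295 and 1.55 CPM in control 1 to 5. These are between 2 and 22 counts a library. The groups overlapped, with control 2 and control 5 above every LOS library and control 1 below all of them. A locus assembled by the authors on the opposite strand overlaps 222 bases of IFIT2, and the sources used here do not say whether counting used the strand. IFIT2 averaged 0.472 ± 0.230 CPM in LOS (SD, n = 6) and 0.625 ± 0.610 CPM in controls (SD, n = 5).

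IFIT3 had 21.0, 30.05, 21.1, 27.6, 36.4 and 19.5 CPM in LOS 1 to 6, against 24.7, 78.4, 15.1, 44.1 and 42.9 CPM in control 1 to 5. Control 2, a female, was highest by a wide margin, 3 of the 5 controls lay above every LOS library, and control 3 lay below all of them. The mean was 25.9 ± 6.62 CPM in LOS (SD, n = 6) and 41.0 ± 24.2 CPM in controls (SD, n = 5). The row of IFIT3 is not separate from its neighbour: LOC100139670, a protein-coding locus at 11043985 to 11076444 on the same strand, starts 3 bases away and covers 10737 of the 10740 bases of IFIT3. The sources used here do not say how reads of the shared span were divided, and the value of IFIT3 depends on that division. LOC100139670 ranged over 101 to 228 CPM in LOS and 111 to 275 CPM in controls. The sum of both rows was 192 ± 44.6 CPM in LOS (SD, n = 6) and 197 ± 69.8 CPM in controls (SD, n = 5). In control 2, where IFIT3 was highest, LOC100139670 was at 119 CPM and the sum at 197 CPM. The sum was highest in control 5, at 318 CPM.

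The melanocyte and Schwann cell markers were also highest in control 2. Of these 8 markers, 4 had a row (PMEL, MITF and S100B among them), and their sum ranged over 57.8 to 139 CPM in LOS and 49.6 to 326 CPM in controls. PMEL stood at 166 CPM and MITF at 151 CPM in control 2. The part of these markers in the IFIT3 level was not tested.

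IFI6, which encodes a small hydrophobic membrane protein (in human cells at mitochondria and endoplasmic reticulum), lies on chromosome 2 at 125662111 to 125665797 on the plus strand. Its level was 6.40, 2.47, 3.77, 3.23, 2.80 and 2.2 CPM in LOS 1 to 6, against 5.88, 3.85, 3.12, 6.64 and 4.02 CPM in control 1 to 5. LOS 1 stood apart from the other 5 LOS libraries and within the range of the controls, whose own range took in 2 further LOS libraries. IFI6 averaged 3.48 ± 1.53 CPM in LOS (SD, n = 6) and 4.70 ± 1.48 CPM in controls (SD, n = 5). The summed keratinocyte markers (5 of 7 with a row) were likewise highest in LOS 1, where CDH1 was at 21.2 CPM; the sum ran from 2.38 to 24.4 CPM in LOS and from 3.56 to 10.7 CPM in controls, and KRT5 and KRT14 were at 0 in LOS 1. Their part in the IFI6 level was not tested.

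RSAD2 and IFI44 were at the edge of detection. RSAD2 (viperin), which makes a chain-terminating nucleotide, lies on chromosome 11 at 90038987 to 90056291 on the minus strand. It had 1 count in LOS 2, 2 in LOS 6 and 0 in the other 4 LOS libraries, against 1 count in control 4 and 0 in the other 4 controls. IFI44, on chromosome 3 at 66023929 to 66043987 on the minus strand, had 1 count in LOS 1, 0 in the other 5 LOS libraries and 0 in all 5 controls. A count of 0 allows up to 3 counts, which corresponds to 0.159 to 0.246 CPM in a LOS library and 0.148 to 0.212 CPM in a control library, for counting error only. Both sums of RSAD2 (3 counts in LOS, 1 in controls) and of IFI44 (1 and 0) lie at or under that limit, so no fold is given and no difference was detectable at this depth.

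**Figure D1:**
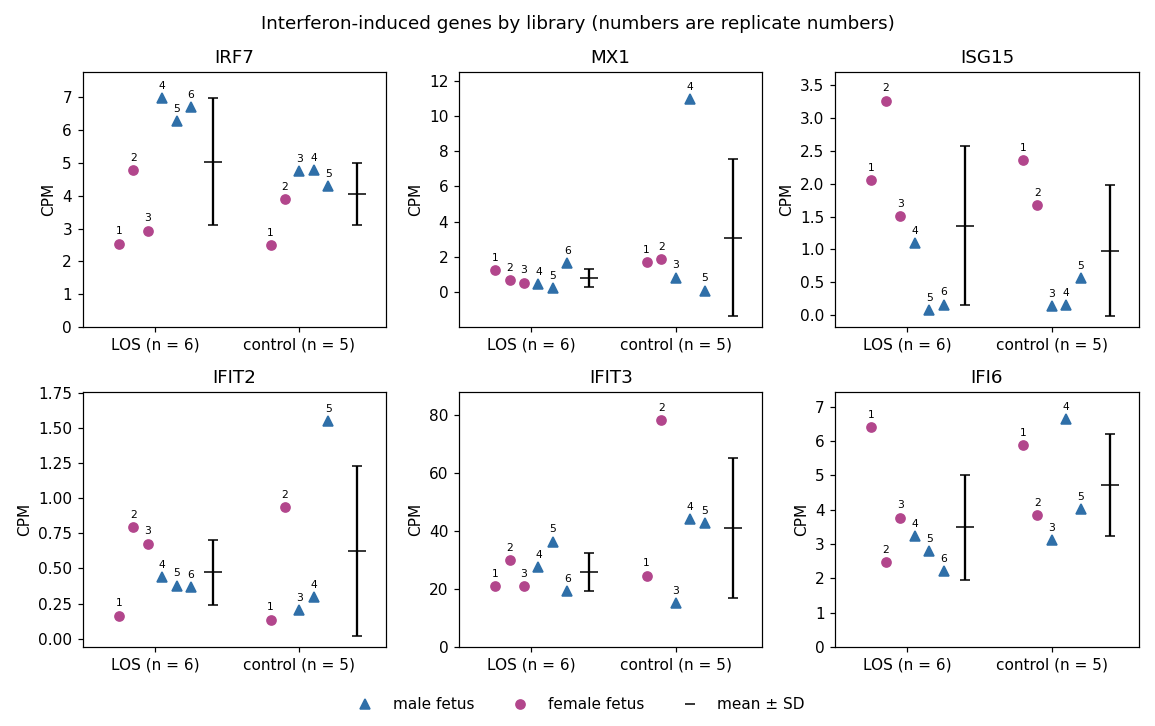
Level in CPM (y axes, a scale for each gene) of the 6 genes that passed the low-count filter, in 6 LOS and 5 control libraries, with triangles for males, circles for females and bars for the mean ± SD of a group. MX1 stands apart in control 4 (10.97 CPM), IFIT3 is highest in control 2 (78.4 CPM), and the male ISG15 values of 0.0756 to 1.10 CPM lie below the female values of 1.51 to 3.27 CPM.

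The libraries differed more in some of these genes than in most genes of the table. The biological coefficient of variation, edgeR's estimate of the spread between libraries of a group and sex beyond counting error, was 0.955 for MX1, 0.652 for IFIT2, 0.576 for ISG15, 0.407 for IFIT3, 0.341 for IFI6 and 0.235 for IRF7. Its median over all 16946 genes was 0.225. MX1 was more dispersed than 98.5% of these genes, IFIT2 than 95.2%, ISG15 than 93.3% and IFIT3 than 83.6%, whereas IRF7, more dispersed than 53.3%, was near the middle. Among the 1000 genes nearest in mean level, the range of log2 CPM was smaller than that of MX1 for 98.6%, of IFIT3 for 96.3% and of ISG15 for 92.7%, but smaller than that of IFIT2 for 62.5%, of IFI6 for 65.8% and of IRF7 for 62.8%.

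The study's design sets LOS against control. edgeR's quasi-likelihood test with sex as a term called 0 of the 6 genes, and 0 of all 16946 genes (0%), changed, at a threshold of 0.05 on the p adjusted by Benjamini-Hochberg. At an unadjusted p under 0.05, 752 of all genes (4.44%) and 0 of the 6 genes stood in this fit, and other settings are given below. DESeq2 called 4 genes, none of them of this set, and limma voom 0. The log2 fold change of MX1, LOS minus control, was -1.83 ± 0.90 (SE, 95% interval -3.80 to 0.15, adjusted p = 0.932). Without control 4 it was -0.29, and with each other library left out it reached -2.23 at the lowest.

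IFIT3 gave -0.66 ± 0.35 on the log2 scale (LOS minus control, 95% interval -1.44 to 0.12, adjusted p = 0.932). With each library left out in turn, that difference ran from -0.88 (without control 3) to -0.21 (without control 2). It was -0.03 ± 0.23 when the counts of IFIT3 and LOC100139670 were summed. IFI6 gave -0.51 ± 0.29 (interval -1.15 to 0.13), and ran from -0.71 (without LOS 1) to -0.29 (without control 4). The positive differences were those of IRF7, 0.34 ± 0.20 (interval -0.10 to 0.78), and ISG15, 0.38 ± 0.57 (interval -0.87 to 1.63). Over the fits with each library left out, IRF7 ran from 0.24 to 0.51 (without control 2), and ISG15 from -0.21 (without LOS 4) to 0.62. IFIT2 gave -0.41 ± 0.64 (interval -1.81 to 0.99), and ran from -0.75 (without control 1) to -0.09 (without control 2). It did not pass the filter, and has no value, without LOS 2 or without control 5. The intervals show how large a change these libraries leave possible: for every gene but IRF7 it exceeds a log2 unit in at least 1 direction, and for IRF7 it stays within 0.78.

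No gene of the set had all LOS libraries above or all below the controls. Among all 16946 genes 39 did (0.23%), 16 of them higher (0.0944%) and 23 lower (0.136%) in LOS.

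**Figure D2:**
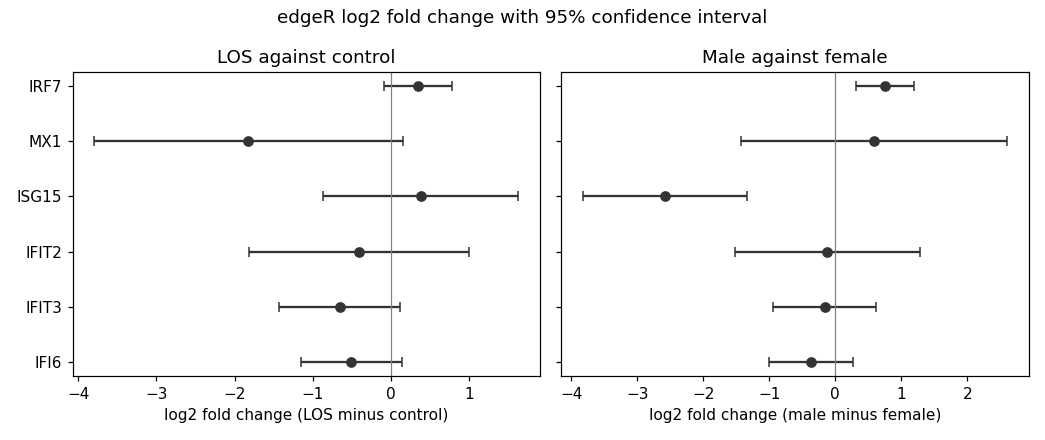
Log2 fold change (x axis) with 95% confidence interval for the 6 genes (y axis), LOS minus control on the left and male minus female on the right, from the edgeR fit on 11 libraries. All intervals on the left include 0, and on the right those of ISG15 (-3.83 to -1.33) and IRF7 (0.32 to 1.2) do not, although neither passed the adjusted threshold.

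The effect of LOS was also fitted within each sex, and the difference of the effects was tested as a group by sex interaction over 17583 genes. edgeR called 0 genes (0%) in males, in females and for the interaction. An unadjusted p under 0.05 was found for 1044 genes (5.94%) in males, 705 (4.01%) in females and 870 (4.95%) for the interaction, and for 0 genes of this set. IFIT3 differed by -0.29 ± 0.47 in males and -1.10 ± 0.52 in females on the log2 scale (LOS minus control), and the male effect minus the female effect was 0.81 ± 0.70 (adjusted p = 0.921). The female controls were control 1 (24.7 CPM) and control 2 (78.4 CPM), so the female value rests on control 2. With no filter on low counts, that female difference had an unadjusted p of 0.0332 in edgeR's test (adjusted p = 0.995). MX1 differed by -2.31 ± 1.22 in males, the sex of control 4, and by -1.15 ± 1.35 in females. IRF7 differed by 0.53 ± 0.26 in males and 0.09 ± 0.30 in females, with an interaction of 0.43 ± 0.40 (adjusted p = 0.922).

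Sex is the other labelled factor, and the ISG15 values of males and females did not overlap. ISG15 averaged 0.364 ± 0.402 CPM in males (SD, n = 6; 0.0756 to 1.10 CPM) and 2.17 ± 0.695 CPM in females (SD, n = 5; 1.51 to 3.27 CPM). All 6 males lay below all 5 females, a separation in that direction found in 34 of 16946 genes (0.201%). The log2 fold change, male minus female, was -2.58 ± 0.57 with an unadjusted p of 0.000811 in edgeR's test, the 16th smallest, and an adjusted p of 0.799, which does not pass the threshold. Over the fits with each library left out in turn it ran from -3.37 to -2.36.

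IRF7 had the opposite order of means, and its sexes overlapped. It averaged 5.63 ± 1.15 CPM in males (SD, n = 6) and 3.34 ± 0.990 CPM in females (SD, n = 5), with a log2 fold change of 0.76 ± 0.20, an unadjusted p of 0.00291 (the 33rd smallest) and an adjusted p of 0.999 in edgeR's test. LOS 2, a female at 4.79 CPM, lay above 3 of the 6 males (control 3, 4 and 5). The other 4 genes had differences of 0.59 ± 0.92 (MX1), -0.37 ± 0.29 (IFI6), -0.16 ± 0.35 (IFIT3) and -0.12 ± 0.64 (IFIT2) between males and females. The MX1 value was -0.79 without control 4. edgeR called 8 of all 16946 genes (0.0472%) different between the sexes, and 0 of this set. At an unadjusted p under 0.05 stood 560 genes (3.3%), ISG15 and IRF7 among them.

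The reads that could be assigned to a parent showed the clearest departure in the set, at IFIT3. In this cross a maternal read is also a read of the breed of the dam, and the labels used here do not give the direction of the cross, so parent and breed cannot be told apart. Maternal reads of IFIT3 were 74 of 396 in LOS 1, 109 of 448 in LOS 2, 1 of 3 in LOS 3, 189 of 650 in LOS 4, 164 of 711 in LOS 5 and 5 of 22 in LOS 6. In controls they were 191 of 648, 745 of 2504, 63 of 284, 491 of 1514 and 6 of 24 in control 1 to 5. The maternal allele was the minor allele in all 11 libraries.

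Leaving aside LOS 3, with its 3 reads, the maternal share of IFIT3 ran from 18.7% (exact Clopper-Pearson 95% interval 14.97 to 22.9%) in LOS 1 to 29.1% (25.6 to 32.7%) in LOS 4 among LOS libraries. Among controls it ran from 22.2% (17.5 to 27.5%) in control 3 to 32.4% (30.1 to 34.9%) in control 4. The mean share was 23.6 ± 3.73% in LOS (SD, n = 5) and 27.8 ± 4.11% in controls (SD, n = 5). Each mean gives equal weight to a library with few reads. These are LOS 6 with 22 reads (interval 7.82 to 45.4%) and control 5 with 24 reads (9.77 to 46.7%). Reads without molecular identifiers are not separate molecules, so such intervals take in only the error of counting.

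In the edgeR model of maternal and paternal reads, fitted on 5700 autosomal genes with enough reads, IFIT3 had a log2 ratio of maternal over paternal of -1.50 ± 0.08 as the mean of the 11 libraries, a fitted maternal share of 26.1% (adjusted p = 4.18e-12). That ratio was lower in 4 other genes, and the median over all genes was -0.02. The model called 1139 of the 5700 genes (20%) unequal between the alleles, 571 of them (10%) with the maternal allele lower, so calls of either kind were frequent. Large ratios were not, with 27 genes below -1 and 25 above 1. Leaving out each library in turn kept the ratio between -1.56 and -1.42.

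The fitted maternal share of IFIT3 was 23.9% in LOS and 28.9% in controls. The difference in log2 ratio, LOS minus control, was -0.37 ± 0.16 with an unadjusted p of 0.0322 and an adjusted p of 0.9995 in the edgeR model. No gene of the 5700 was called for that difference (0%), and 246 (4.32%) had an unadjusted p under 0.05.

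The overlapping locus enters here too. LOC100139670, which spans nearly all of IFIT3, had a fitted maternal share of 48.1% (log2 ratio -0.11 ± 0.09, adjusted p = 0.45), and IFIT5, the next gene of the cluster at 11081800 to 11091762, had 55.2% (adjusted p = 0.0922). With the allelic reads of IFIT3 and LOC100139670 summed, the fitted maternal share was 38.3% (log2 ratio -0.69 ± 0.07, adjusted p = 1.50e-07), and it was under 50% in 11 of 11 libraries, between 33.9% and 48.2%. The LOS minus control difference of the sum was -0.15 ± 0.14 (unadjusted p = 0.294 in the same model). Allelic reads of IFIT3 outnumbered its expected counts in 8 of the 11 libraries (4 LOS and 4 control), so the 2 tables did not count reads of this span alike. The same was found in 7892 of 78304 pairs of a gene and a library with allelic reads (10.1%).

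**Figure D3:**
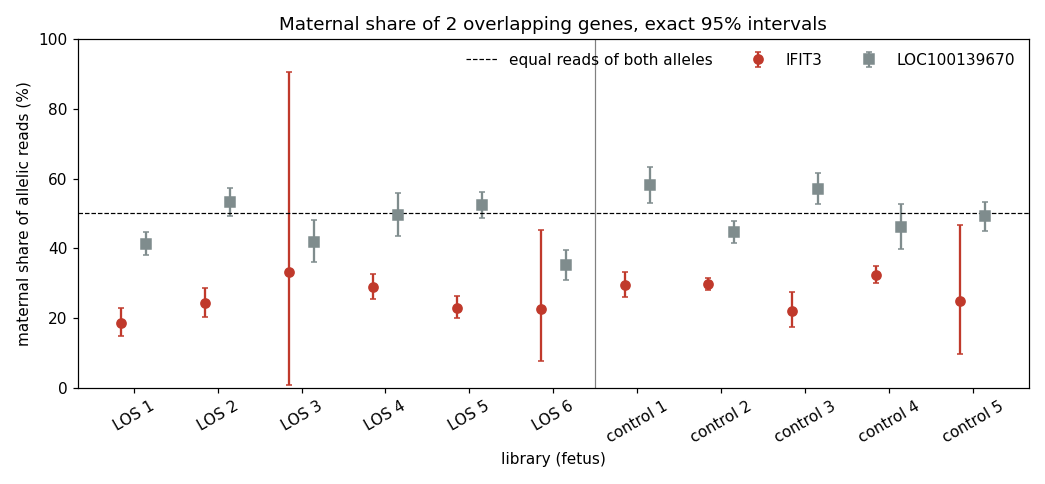
Maternal share of allelic reads in percent (y axis) in each library (x axis), with exact 95% intervals, for IFIT3 (circles) and the overlapping locus LOC100139670 (squares), LOS left of control. Every IFIT3 point lies below the dashed line of equal reads, LOS 3 with 3 reads has an interval of 0.84 to 90.6%, and LOC100139670 lies on both sides of the line.

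**Figure D4:**
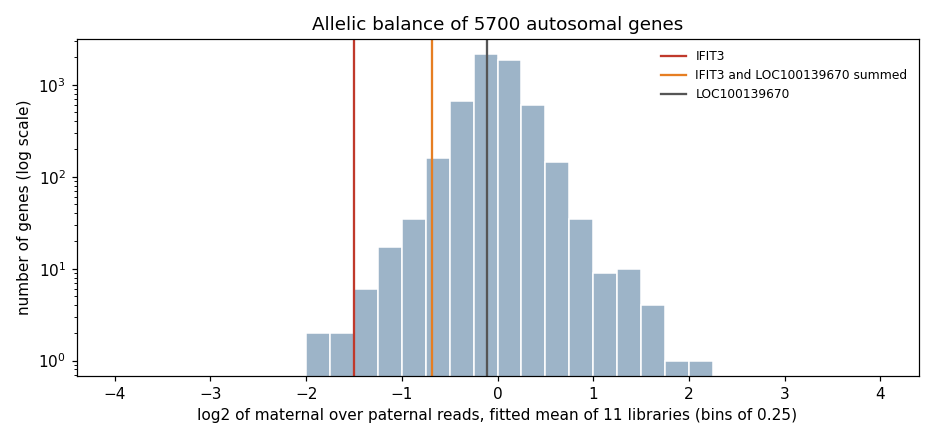
Number of genes (y axis, log scale) by fitted log2 ratio of maternal over paternal reads (x axis, bins of 0.25) for 5700 autosomal genes, with lines at IFIT3 (-1.50), the sum of IFIT3 and LOC100139670 (-0.69) and LOC100139670 alone (-0.11). IFIT3 lies in the far lower tail, where 27 genes are below -1.

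The other genes had few allelic reads and were not tested. IRF7 had reads of both alleles in 7 libraries. Maternal reads were 8 of 15 in LOS 1, 2 of 10 in LOS 3, 14 of 21 in LOS 4 and 32 of 60 in LOS 5, against 12 of 41 in control 3, 10 of 35 in control 4 and 2 of 16 in control 5. The maternal allele of IRF7 was the minor allele in 1 of 4 LOS libraries and in 3 of 3 controls, at a mean depth of 18 reads a library, under the minimum of 20 set for the test. MX1 had allelic reads in control 4 alone, 41 maternal and 25 paternal (62.1% maternal, exact 95% interval 49.3 to 73.8%), so the high MX1 level of that library was read from both alleles. IFI6 had 49 maternal and 55 paternal reads over 6 libraries, and IFIT2 had 3 maternal and 8 paternal reads over 3 controls.

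Covariation from library to library was examined over all pairs of the 6 genes. Over the 15 pairs, Pearson's r of log2 CPM was positive in 9 and negative in 6, and 0 pairs passed an adjusted permutation p of 0.05. At an unadjusted permutation p under 0.05 stood 1 pair, by Pearson's r and by Spearman's rho alike. That pair was IRF7 with IFI6, with an inverse relation: r = -0.69 (permutation p = 0.0198, adjusted p = 0.297, n = 11) and rho = -0.66 (permutation p = 0.0336, adjusted p = 0.505). Without the 2 libraries farthest from the median of IRF7 (LOS 1 and control 1) r was -0.43, within the 6 LOS libraries it was -0.80, and on deviations from group and sex means it was -0.70. Without control 4 it was -0.85, with an adjusted permutation p of 0.033, so whether this pair passes the threshold depends on that library.

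IFIT2 and IFIT3, neighbours on chromosome 26, had the highest positive r, 0.57 (permutation p = 0.0661, adjusted p = 0.33, n = 11; rho = 0.56, permutation p = 0.076). It was 0.24 without control 2 and control 5, the libraries where IFIT2 lay farthest from its median, so the relation rests on those libraries. MX1 and IFI6 had r = 0.48 (permutation p = 0.134, adjusted p = 0.443; rho = 0.37, permutation p = 0.261), and 0.37 without control 4 and control 5, the libraries farthest from the median of MX1. It was 0.20 without control 4 alone and 0.08 without LOS 1 and control 4, the libraries farthest from the median of IFI6, so this relation rests on control 4. Because the sexes did not overlap in ISG15, its pairs are given within the 6 males: r was 0.13 with IRF7, 0.07 with IFI6, 0.16 with IFIT3, 0.54 with IFIT2 and -0.38 with MX1. All of these points share the depth and scaling of their library.

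Set against the mean of the other 5 genes (each standardised over the 11 libraries), IFIT3 had r = 0.66 and IRF7 r = -0.45. The other 4 lay between -0.094 (ISG15) and 0.052 (IFIT2). The IFIT3 value depends on how reads were divided between IFIT3 and LOC100139670. With both rows summed, r of the sum was -0.33 with MX1, -0.21 with IFI6 and -0.056 with ISG15. It was 0.04 with IRF7 and 0.49 with IFIT2. The r of the sum with the mean of the other 5 genes was not computed. No library was high in every gene: control 4 was high in MX1, IFIT3 and IFI6 but not in ISG15 or IFIT2, and control 2 was above the mean of the libraries in 5 of the 6 genes, among the 3 highest in MX1, IFIT2 and IFIT3, close to the mean in IFI6 and below it in IRF7.

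**Figure D5:**
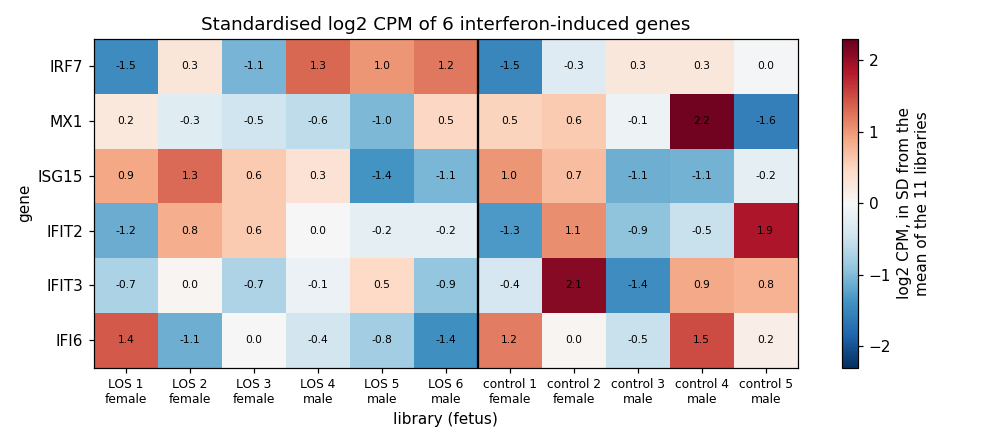
Log2 CPM of the 6 genes (rows) in the 11 libraries (columns, LOS left of control), in SD from the mean of all libraries, red above and blue below. No column is red or blue throughout, and the highest values are MX1 in control 4 (2.2 SD), IFIT3 in control 2 (2.1 SD) and IFIT2 in control 5 (1.9 SD).

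Among the 10 genes whose level followed the mean of the 6 most closely, over the 11 libraries and with no test, were ARPIN (r = 0.93), H2AFV (0.90), GCHFR (0.88), ABHD17C, CDHR4, ST6GALNAC6, AHRR and ANKRD13A (0.85 for the last). None of the 10 is on the lists of interferon genes below. ARPIN is a regulator of the actin-nucleating Arp2/3 complex and stood at 22.6 CPM in LOS and 23.1 CPM in controls.

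The rest of the interferon pathway was measured beside these genes. Of 9 listed ligand genes 1 had a row, IFNE, which stayed between 0 and 0.227 CPM in LOS and between 0 and 0.565 CPM in controls and did not pass the filter. All 5 receptor genes with a row passed it, and 3 were higher and 2 lower in LOS, with 0 called. IFNAR1, a chain of the type I receptor, averaged 27.6 ± 5.09 CPM in LOS (SD, n = 6) and 26.1 ± 4.62 CPM in controls (SD, n = 5). IFNGR1, the ligand-binding chain of the type II receptor, had the smallest p of the receptors, with 52.2 ± 21.0 CPM in LOS and 41.8 ± 7.02 CPM in controls (log2 difference 0.32 ± 0.23).

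Of 6 signal transduction genes 2 were higher and 4 lower in LOS, with 0 called. IRF9, the DNA-binding part of the type I complex, was at 6.62 ± 1.23 CPM in LOS (SD, n = 6) and 5.75 ± 2.79 CPM in controls (SD, n = 5). The kinase JAK1 differed by -0.10 ± 0.07 on the log2 scale (LOS minus control).

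Of 13 sensors and adaptors 5 were higher and 8 lower in LOS, and of 8 regulatory factors 4 were higher and 4 lower, with 0 called in either list. TRAF3, an adaptor between nucleic acid sensors and the kinases that activate IRF3 and IRF7, was at 33.1 ± 4.86 CPM in LOS (SD, n = 6) and 27.2 ± 4.36 CPM in controls (SD, n = 5). CGAS, which senses DNA in the cytosol, was at 1.40 ± 1.21 CPM in LOS and 2.31 ± 1.02 CPM in controls. SOCS1, an inhibitor of JAK kinases, was at 0.942 ± 0.355 CPM in LOS and 1.39 ± 0.692 CPM in controls. USP18, which removes ISG15 from proteins, was at 0.755 ± 0.244 CPM in LOS and 0.552 ± 0.238 CPM in controls.

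The 30 other interferon-induced effectors that were tested split evenly, 15 higher and 15 lower in LOS with 0 called, and a median log2 difference of 0.01 against -0.0007 for all genes. Those with the smallest p were UBE2L6, the conjugating enzyme for ISG15, at 2.64 ± 1.02 CPM in LOS (SD, n = 6) and 1.83 ± 0.309 CPM in controls (SD, n = 5), and IFI35, at 4.01 ± 1.23 CPM in LOS and 5.22 ± 0.860 CPM in controls. SAMD9, an antiviral factor, followed at 10.1 ± 8.08 CPM in LOS and 16.5 ± 6.47 CPM in controls. TRIM21, an antibody receptor in the cytosol, was at 7.15 ± 1.25 CPM in LOS and 8.25 ± 1.25 CPM in controls. Between the sexes 18 of the 30 were higher and 12 lower in males, with 0 called.

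Over the 11 libraries, and as a description with no test, the effectors had a median r of 0.083 with the mean of the 6 genes, the sensors and adaptors 0.14, the signal transduction genes 0.20 and the receptors -0.22, against 0.02 for all genes tested. For the cell type markers, the median r with that mean was 0.32 over 3 melanocyte and Schwann cell markers (0.27 to 0.63, MITF highest). It was 0.26 over 3 keratinocyte markers (-0.14 to 0.365) and 0.17 over 2 endothelial markers (-0.14 to 0.47). Over 9 fibroblast markers it was 0.12 (-0.35 to 0.65, PDGFRA highest). LYZ, the 1 leukocyte marker tested, had r = 0.70, at a level of only 0.27 to 0.87 CPM over the libraries. The part of these markers in the covariation was not tested. DDX58, the RNA sensor RIG-I, was the highest of the sensors and adaptors (r = 0.72), and IFIT5 the highest of the effectors (0.57). The lowest r was -0.31 among the sensors and adaptors and -0.58 among the effectors. It was positive for 10 of 13 sensors and adaptors and for 16 of 30 effectors. The signal transduction genes ran from -0.71 to 0.55. IFIT5, of the same family and cluster as IFIT2 and IFIT3, was highest in control 2 at 82.7 CPM, the library where the IFIT3 row was highest. The sum of IFIT3 and LOC100139670 was not highest there (197 CPM, against 318 CPM in control 5). IFIT5 averaged 50.4 ± 7.16 CPM in LOS (SD, n = 6) and 57.0 ± 14.9 CPM in controls (SD, n = 5).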

How the data were processed

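The authors deposited 3 tables. The first holds expected counts (estimated reads) per gene, of which 71.2% are exactly whole. The second holds, per the file headers, read counts of the maternal and the paternal allele. The third, per the file headers, holds the expected counts split between the alleles by their share of reads. The submitters' processing notes name Cufflinks 2.2.1, edgeR 3.36.0, FastQC 0.11.7, GATK, HISAT2 2.1.0, Picard 2.22.4, Salmon 0.11.1, SAMtools 1.8 and StringTie 2.1.4, with build ARS-UCD1.2. The sources used here do not say which tool made which table, or whether counting used the strand.

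Expected counts were rounded and fitted over the whole table in R 4.3.3 with edgeR 4.0.16 (TMM scaling, filterByExpr, quasi-likelihood test, terms for sex and group), with Benjamini-Hochberg adjustment and a threshold of 0.05. Values in CPM use TMM library sizes. The allelic model had a term per library and covered autosomal genes with a mean of at least 20 allelic reads per library and at least 10 reads in 3 libraries of each group. Correlations used log2 CPM with a prior count of 2 and 100000 two-sided permutations (SciPy 1.17.1). Intervals of shares are at 95%. Alternatives were DESeq2 1.42.0, voom in limma 3.58.1, other scalings and filters, no sex term, a replicate block, other prior counts and read minimums, and each library left out. Summing IFIT3 with LOC100139670 was added after the data were seen. The scripts were tested on simulated data.

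The genes and lists were chosen with earlier results of these data known. All 8 genes with a row are named with their values, and lists by counts with up to 4 of the smallest p. The 10 genes most like the set were also chosen for naming, and some genes that these rules name are not reported here. The overlapping and neighbouring loci and the cell type markers given by library were chosen after their values were seen. P-values measure the spread between fetuses, with 1 culture each. Levels are compared within a gene, never between genes. IFIH1 stands in 2 lists.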

Additional observations from a re-analysis of the deposited data

Results flagged for a closer look

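In 14 sets of values (the levels of the 6 genes and the maternal share of IFIT3, each in LOS and in controls) a library far from the others of its group was looked for with Dixon's criterion, which chance meets in about 1 set in 20. It was met in 2. MX1 stood at 11 CPM in control 4, where the gap to the nearest control was 0.834 of the range of the 5 controls, above the critical value of 0.71. IFI6 stood at 6.4 CPM in LOS 1, with a gap of 0.63 of the range of the 6 LOS libraries, just above the critical value of 0.625.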

How the results depend on the processing

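Of the genes changed in LOS, DESeq2 called 4 where edgeR called 0; 0 were called with any library left out. Leaving out each library in turn gave 3 to 7 calls between males and females (8 with all), 0 to 1 for the LOS difference in maternal share, and 0 to 1 correlated pairs. IRF7 with IFI6 was the pair, at r = -0.85 without control 4. The male minus female difference ran from -0.48 to 0.22 for IFIT2 (over 9 of the 11 libraries left out), from -0.32 to 0.29 for IFIT3 and from -0.79 to 0.87 for MX1, on the log2 scale. The LOS minus control difference of ISG15 ran from -0.21 to 0.62. Ranges of r that included both signs were -0.02 to 0.30 (IRF7 and IFIT2), -0.037 to 0.23 (IRF7 and IFIT3), -0.14 to 0.32 (MX1 and IFIT3), -0.11 to 0.21 (ISG15 and IFIT3) and -0.28 to 0.30 (MX1 and ISG15). With IFIT3 and LOC100139670 summed, the male minus female difference of IFIT3 was 0.0941, and r turned to -0.33 with MX1, -0.056 with ISG15 and -0.21 with IFI6. The cause was not tested. In voom the LOS difference was -1.09 for MX1, 0.16 for ISG15 and -0.0007 for IFIT2. Deviations from the group mean correlated at -0.166 to 0.257 between same-numbered LOS and control libraries, over 5 numbers. Sex was left in and differently numbered libraries were not compared, so these values cannot decide whether the numbers pair the samples. The replicate block gave 0 calls, and -0.63 for IFIT3 (unadjusted p = 0.0237 in edgeR's test) and -1.73 for MX1. The unadjusted p of MX1 was 0.0294 in DESeq2's test, and in edgeR's 0.0394 with no sex term and 0.0444 with no filter. With single libraries left out, edgeR's unadjusted p fell to 0.0138 for IFIT3 (without control 3) and 0.0167 for MX1 (without control 5). It fell to 0.0175 for IFI6 (without LOS 1) and 0.0265 for IRF7 (without control 2). None passed the adjusted threshold. IFIT2 did not pass the filter, and has no value, without LOS 2, without control 5, with no sex term, with no group term, or at 1 CPM in 5 libraries. ISG15, MX1 and IFIT2 have 1 to 22 counts in many libraries, which limits the precision of their folds. The motif search in promoters was not run.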

Other observations

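The genes that followed a single interferon-induced gene most closely over the 11 libraries differed from gene to gene, and are given with no test, chosen after their values were seen. ISG15 was followed most closely by SYAP1 (r = 0.89) and by XIST (r = 0.87), the RNA made from the inactive X chromosome of females. Because the sexes did not overlap in ISG15, these r cannot be told apart from the difference between males and females. No r within a sex was computed for these genes. IRF7 was followed by LRIG2 (r = 0.91) and FXR2 (0.91), MX1 by TMEM170A (0.92), IFIT2 by SRPK2 (0.93), IFIT3 by HERC3 (0.93) and IFI6 by EPS15L1 (0.97) and GNPTAB (0.96). No gene was among the 3 closest of more than 1 of the 6.

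The clusters around the genes at the edge of detection held further interferon-induced genes that were measured. IFI44L, on the same strand as IFI44, lies 9194 bases from it and was at 1.51 ± 0.521 CPM in LOS (SD, n = 6) and 1.77 ± 0.571 CPM in controls (SD, n = 5). CMPK2, on the opposite strand to RSAD2 and 11712 bases from it, was at 1.70 ± 0.958 CPM in LOS and 1.47 ± 0.723 CPM in controls. Neither passed the test of LOS against control.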
